A study of Rattus norvegicus with 4 samples.

Results

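The 9 genes described here encode enzymes that move long-chain fatty acids into mitochondria and oxidize them: Cpt1a, Cpt2, Acadvl, Acadl, Acadm, Hadha, Hadhb and Hadh, and Ehhadh, which acts in peroxisomes. They were chosen by function from the 23360 gene symbols of the RNA sequencing data, with Hadh included because its product is known to restrain insulin secretion. The line was INS-1 832/3, derived from a rat insulinoma, which carries the human insulin gene and was grown with Geneticin. One group was standard 2D monolayer culture and the other was 3D culture of cells bioprinted in GelXA LAMININK 411, a laminin-containing gelatin methacrylate hydrogel, with 2 cultures in each group. All 4 cultures were of the same line at passage 3, grew in the same RPMI-1640 medium with 10% fetal bovine serum and were harvested after 5 days. The methods call the cultures biological replicates, and the groups differ in bioprinting, hydrogel and UV crosslinking together, so these cannot be told apart.

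Beta-oxidation shortens an acyl-CoA chain step by step. CPT1 loads the acyl group onto carnitine at the outer mitochondrial membrane, CPT2 returns it to coenzyme A inside, an acyl-CoA dehydrogenase chosen by chain length makes the initial oxidation, and hydration, a further oxidation and thiolysis follow. The mitochondrial trifunctional protein, built of HADHA and HADHB, carries out the last 3 reactions on long chains, while HADH oxidizes hydroxyacyl-CoA of short and medium chain length. In pancreatic beta cells glucose metabolism raises malonyl-CoA, an inhibitor of CPT1, and HADH also binds glutamate dehydrogenase and holds back amino acid-stimulated insulin release.

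Abundances are given as TPM as deposited, a measure per transcript length that sums to 1000000 in each sample and so allows levels of different genes to be compared. Read depth is not part of TPM, and counting error is therefore unknown here. Tests were run with limma on log2(TPM + 1) after scaling between samples, over the 11960 genes whose TPM averaged 1 or more, and a gene was called at a Benjamini-Hochberg adjusted p below 0.05. Between samples, 19355 to 19959 of 31201 transcripts were above 0. The 11 beta-cell markers were all detected and summed to between 147239 and 160198 TPM in 2D and between 157503 and 170140 TPM in 3D, most of it Ins1 (114003 to 137822 TPM). Singly, Ins2 fell by 0.58 on the log2 scale (adjusted p = 0.0095), Slc2a2 rose by 0.39 (adjusted p = 0.0075), and the 9 other beta-cell markers were not called. Of 6 markers of other islet cells only Gcg reached a mean of 1 TPM, the summed level was 42.2 to 74.4 TPM in 2D and 125 to 156 TPM in 3D, and Ghrl and Hhex were listed at 0. Gcg was called higher in 3D, by 1.26 on the log2 scale (limma adjusted p = 0.0217). Endothelial markers summed to 1.08 to 1.15 TPM in 2D and 1.40 to 1.68 TPM in 3D. Of these only Kdr reached a mean of 1 TPM, Cdh5 and Cldn5 were listed at 0, and Pecam1 was not listed. Fibroblast markers summed to 1.89 to 1.91 TPM in 2D and 2.26 to 2.35 TPM in 3D. Here only Pdgfra reached a mean of 1 TPM, Pdgfrb and Dcn were listed at 0, and Col1a2 was not listed. Acinar and ductal markers summed to 16.1 to 18.8 TPM in 2D and 20.0 to 22.0 TPM in 3D. Among them only Krt7 reached a mean of 1 TPM, Cpa1, Cela1 and Prss1 were listed at 0, and Amy2a3 was not listed. Markers of hepatocytes and adipocytes, of which only Adipoq reached that mean, summed to 37.3 to 41.9 TPM in 2D and 34.4 TPM in both 3D cultures, with Fabp1 and Fabp4 listed at 0. The part of these markers in the results was not tested.

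Hadh rose in 3D culture while Cpt2, Acadl, Acadm and Hadha fell. Acadvl, Hadhb and Cpt1a did not pass the test, and Ehhadh lay below the expression filter. Thus 5 of the 8 enzymes tested were called, against 38.0% of all genes tested. The 4 lower calls compare with 19.5% of all genes called lower and the 1 higher call with 18.5% called higher. After scaling, the groups did not overlap in any of the 8 genes tested, nor in 75.5% of all genes. At an unadjusted p below 0.05, 7 of the 8 passed, against 50.6% of all genes. The median log2 fold change of the 8 genes was -0.21, and that of all genes tested was -0.0031. The calls rested on having both 3D cultures and were lost with either one left out, which leaves 1 culture in that group. Without 3D replicate 1 the log2 fold change was 0.28 for Hadh and -0.53 for Acadl. Without 3D replicate 2 it was 0.42 for Hadh and -0.36 for Acadl. With either 3D culture left out every one of the 8 log2 fold changes kept its sign. In RNA from whole cultures, a lower level per cell and fewer cells expressing a gene cannot be told apart.

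**Figure D1:**
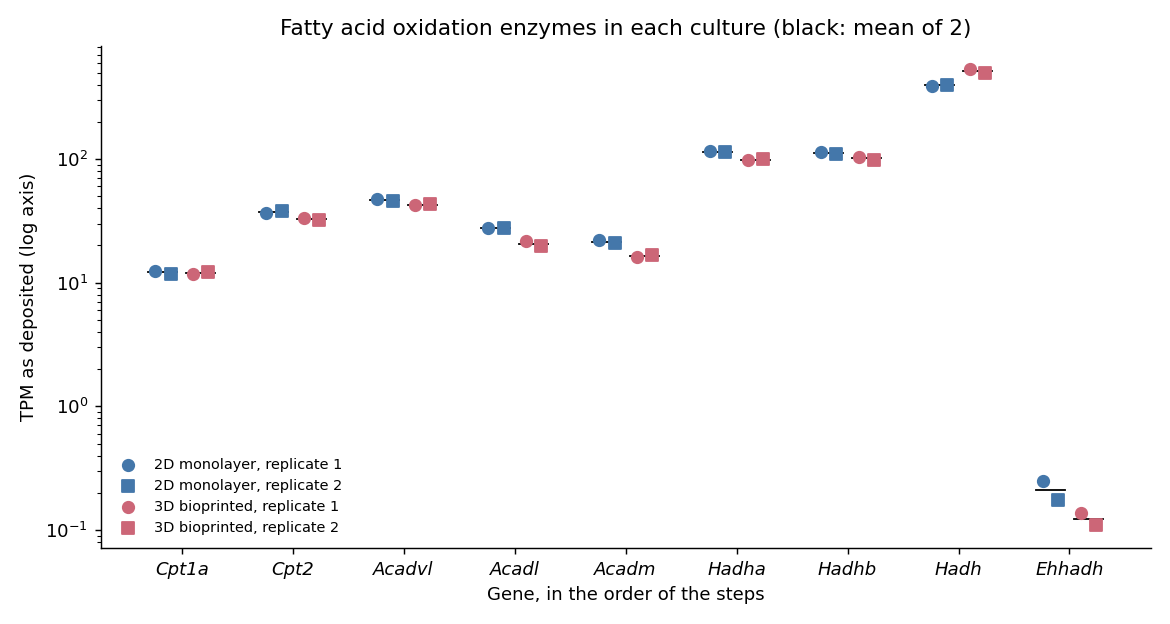
TPM as deposited (log axis) of each of the 9 genes in the 2 monolayer cultures (blue) and the 2 bioprinted cultures (red), with circles for replicate 1, squares for replicate 2 and black lines for the mean of each group. Hadh lies above the other genes in every culture and higher in 3D, Hadha and Hadhb lie together near 100 TPM, and Ehhadh lies below 1 TPM.

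Hadh was the most abundant of the 9 transcripts in all 4 cultures. It had 393 and 394 TPM in the 2D cultures and 537 and 498 TPM in the 3D cultures. Both 3D values lay above both 2D values, by more than the cultures of either group differed from each other. The means were 393 ± 0.762 and 517 ± 27.8 TPM (SD, n = 2 each), and limma estimated the log2 difference at 0.35 (95% interval 0.18 to 0.52, standard error 0.070, adjusted p = 0.0159). The level of Hadh exceeded that of 97.8% of the genes tested, and its log2 fold change exceeded that of 83.1% of them. It stayed called in all 8 alternative settings that kept the 4 samples. Its adjusted p was 0.125 without 3D replicate 1 and 0.0598 without 3D replicate 2, with log2 fold changes of 0.28 and 0.42. The files list 1 transcript for Hadh, ENSRNOT00000014658.2, so gene and transcript values are the same.

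Cpt1a encodes the liver-type CPT1 isoform, the malonyl-CoA-sensitive entry step. Its transcripts stood at 12.4 and 11.8 TPM in 2D and at 11.7 and 12.1 TPM in 3D. The groups overlapped on the deposited values, whereas after scaling between samples both 3D values lay just below both 2D values. The log2 fold change was -0.060 with a 95% interval of -0.22 to 0.10 (adjusted p = 0.491), and ran from -0.095 to -0.020 over the alternative fits. Changes smaller than the bounds of that interval were not resolved with 2 cultures a group.

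Cpt2, the carnitine acyltransferase of the inner membrane, had 36.6 and 37.7 TPM in 2D and 33.2 and 32.1 TPM in 3D. The groups did not overlap and the means were 37.2 ± 0.751 and 32.6 ± 0.779 TPM (SD, n = 2 each). Its log2 fold change of -0.22 (standard error 0.067) had an adjusted p of 0.0475 in limma, just under the threshold. Cpt2 was called in only 2 of the 8 alternative settings with all samples, the pseudocounts of 0.1 and 0.5. The adjusted p of Cpt2 was 0.0514 with the replicate number as a block, 0.116 without 2D replicate 2, 0.161 without 3D replicate 1 and 0.234 without 3D replicate 2.

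The 3 acyl-CoA dehydrogenases were all lower on average in 3D, and 2 of them passed the test. Acadl, specific for long chains, had 27.7 TPM in both 2D cultures and 21.8 and 19.6 TPM in 3D. It fell by 0.45 on the log2 scale (adjusted p = 0.0118, standard error 0.079), the largest fall among the 8 genes tested. Acadm, the medium-chain enzyme, had 22.1 and 20.9 TPM in 2D and 16.0 and 16.9 TPM in 3D, with no overlap between groups. It fell by 0.41 on the log2 scale (standard error 0.061, adjusted p = 0.0084) and was the only 1 of the 9 with an adjusted p below 0.01. Acadvl, which acts on very long chains at the inner membrane, had 47.8 and 45.6 TPM in 2D and 42.6 and 43.0 TPM in 3D. Its groups did not overlap either, but the log2 fold change of -0.17 (95% interval -0.30 to -0.032) missed the threshold, with an adjusted p of 0.0572 in limma and of 0.0360 without the expression filter. Acadl and Acadm were called in all 8 settings that kept the 4 samples. Without 3D replicate 1 the adjusted p was 0.0653 for Acadl and 0.0886 for Acadm, and without 3D replicate 2 it was 0.0786 and 0.0613.

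**Figure D2:**
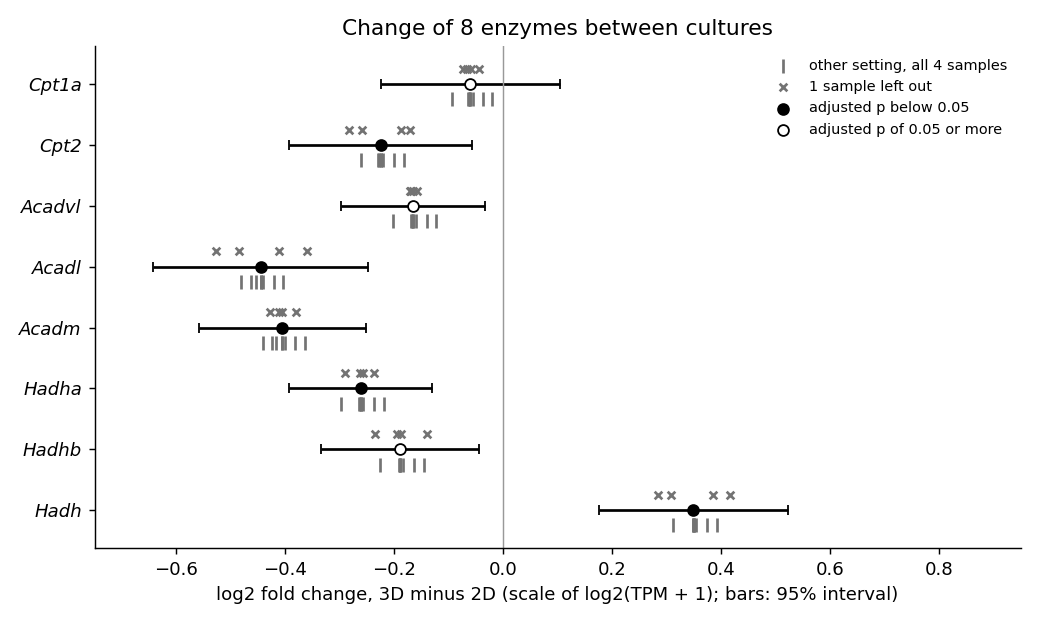
Log2 fold change (3D minus 2D, on the scale of log2(TPM + 1)) of the 8 genes tested, with 95% intervals as bars and filled circles for an adjusted p below 0.05. Grey ticks are the alternative settings with all 4 samples and grey crosses the fits with 1 culture left out; Hadh lies right of 0 and the other 7 genes left of 0 in every one.

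Hadha and Hadhb encode the alpha subunit, with hydratase and dehydrogenase activities, and the beta subunit, a thiolase, of the trifunctional protein. Hadha had 115 and 114 TPM in 2D and 97.4 and 99.4 TPM in 3D. Both 3D values were below both 2D values, and Hadha fell by 0.26 on the log2 scale (adjusted p = 0.0164, standard error 0.053). For Hadha the adjusted p was 0.128 without 3D replicate 1 and 0.107 without 3D replicate 2. Hadhb had 114 and 109 TPM in 2D and 104 and 98.4 TPM in 3D, again without overlap. Its log2 fold change of -0.19 (standard error 0.058) came with an adjusted p of 0.0503 in limma, just over the threshold, and of 0.0420 without the expression filter. Of the 2 transcripts listed for Hadhb, ENSRNOT00000085613.1 was above 0 only in 2D replicate 1, at 0.254 TPM.

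The subunit transcripts stood close to equal abundance. The ratio of Hadha to Hadhb TPM within a sample was 1.01 and 1.04 in the 2D cultures and 0.940 and 1.01 in the 3D cultures. The groups overlapped, and the difference of -0.050 between the means was near the pooled SD of 0.038 (exact two-sided permutation p = 0.667, where 2 against 2 cannot give less than 0.333). In the order of levels Hadha and Hadhb were also the only neighbours whose values overlapped within a group. The order was Hadh, Hadha, Hadhb, Acadvl, Cpt2, Acadl, Acadm, Cpt1a and Ehhadh in 2D, and in 3D it differed only in Hadhb standing before Hadha.

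The promoter windows of this pair are shown because the genes lie head to head in the rat genome. In RefSeq sequence of build GRCr8 each window runs from 250 bases before to 50 bases after the start site, and those of Hadha (chr6:31907551-31907850, plus strand) and Hadhb (chr6:31907451-31907750, minus strand) share 200 bases. In the Hadha window, printed 5′ to 3′, capitals mark the shared bases.
Hadha: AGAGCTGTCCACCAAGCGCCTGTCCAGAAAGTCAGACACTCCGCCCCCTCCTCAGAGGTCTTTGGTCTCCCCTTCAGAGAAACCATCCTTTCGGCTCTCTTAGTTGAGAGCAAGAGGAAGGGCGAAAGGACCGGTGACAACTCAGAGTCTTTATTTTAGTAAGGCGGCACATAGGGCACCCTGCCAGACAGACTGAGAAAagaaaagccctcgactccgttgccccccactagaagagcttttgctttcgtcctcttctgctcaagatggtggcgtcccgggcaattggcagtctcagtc

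Windows were found for 8 of the 9 genes, all but Acadl. Those of Hadh, which rose, and Acadm, which had the smallest p among the enzymes that fell, are given for comparison. In the Hadh window (chr2:222504397-222504696, minus strand) capitals mark the GC box GGGCGG on either strand, present 3 times. In the Acadm window (chr2:245542815-245543114, minus strand) capitals mark 3 GC boxes and the cAMP response element TGACGTCA, which lies 103 bases before the start site.
Hadh: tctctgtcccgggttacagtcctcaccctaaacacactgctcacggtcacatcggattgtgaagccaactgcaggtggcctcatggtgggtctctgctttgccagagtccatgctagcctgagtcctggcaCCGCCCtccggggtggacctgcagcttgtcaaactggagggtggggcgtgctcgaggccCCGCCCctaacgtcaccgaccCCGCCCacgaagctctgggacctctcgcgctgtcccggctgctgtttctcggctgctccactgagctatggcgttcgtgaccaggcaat
Acadm: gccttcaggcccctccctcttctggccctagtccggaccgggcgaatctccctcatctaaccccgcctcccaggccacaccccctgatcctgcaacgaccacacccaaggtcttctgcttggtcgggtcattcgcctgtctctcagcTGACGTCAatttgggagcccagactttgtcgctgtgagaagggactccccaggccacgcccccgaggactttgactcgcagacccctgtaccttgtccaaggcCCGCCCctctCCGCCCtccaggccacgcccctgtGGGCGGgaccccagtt

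Motifs were searched on both strands as exact letters. GGGCGG was in the windows of Cpt2, Acadm, Hadha, Hadhb, Hadh and Ehhadh, and in 33.1% of the 33469 rat windows of the same length. The only box of the Hadha window, 210 bases before its start site, lies in the shared bases. It is the same site as the Hadhb box 96 bases before the start of Hadhb. TGACGTCA was in that of Acadm and in 1.83% of all windows. AGGTCA, the core of nuclear receptor sites, was in those of Acadvl, at 169 and 17 bases before the start site, and of Hadhb, and in 16.2% of all windows. The full PPAR element AGGTCANAGGTCA was in none of the 8 windows and in 0.0538% of all, and the ERR element TCAAGGTCA was in none of the 8 and in 0.433% of all. CCAAT was found in the windows of Hadha and Ehhadh (37.5% of all windows) and TATAAA in none of the 8 (14.2% of all).

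Ehhadh, the peroxisomal bifunctional enzyme, was close to the bottom of the scale. It had 0.247 and 0.176 TPM in 2D and 0.136 and 0.109 TPM in 3D. The 3D values were below the 2D values, but at this level the gene was not tested with the others, and with all genes kept the adjusted p was 0.132 in limma.

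Shares within the group do not depend on the scaling between samples. Hadh made up 51.1% and 51.8% of the summed TPM of the 9 genes in the 2D cultures and 62.2% and 60.7% in the 3D cultures. For this share the exact two-sided permutation p was 0.333, the smallest that 2 against 2 cultures allow. Shares sum to a fixed total, so the other 8 shares were smaller in 3D as Hadh rose, also that of Cpt1a, whose TPM overlapped between groups, and no change of those genes is read from them. The ratio of Hadh to Hadha, a quantity chosen after the values were seen, was 3.40 and 3.46 in 2D and 5.51 and 5.01 in 3D. Without Hadh, the summed level of the 8 other genes was 377 and 367 TPM in 2D and 326 and 322 TPM in 3D, while the sum with Hadh was 770 and 761 TPM in 2D and 863 and 819 TPM in 3D.

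**Figure D3:**
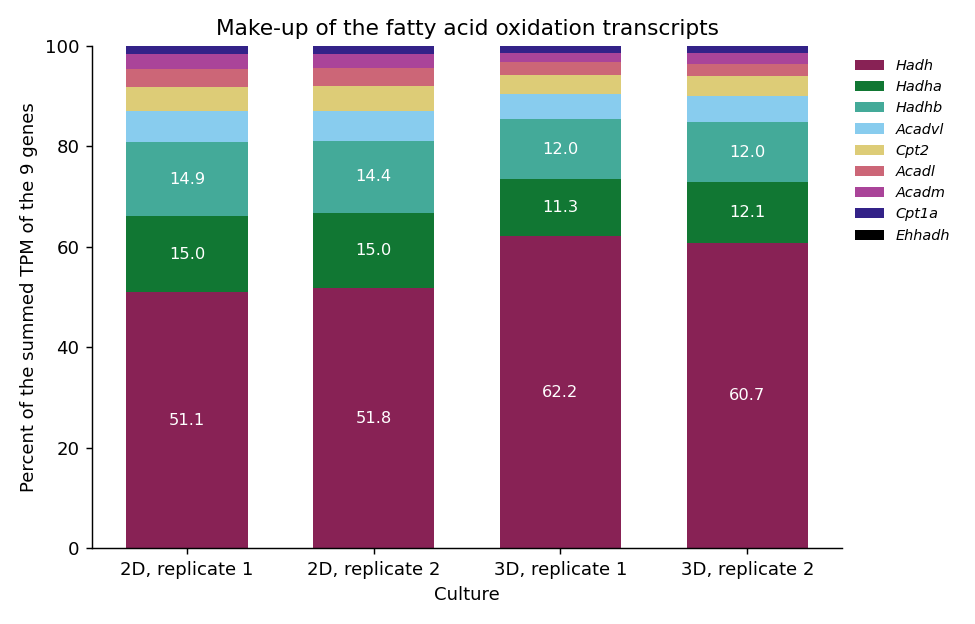
Share (percent, axis from 0 to 100) that each of the 9 genes takes of their summed TPM in each of the 4 cultures, as stacked bars with the 3 largest shares printed. Hadh takes 51.1% and 51.8% in 2D and 62.2% and 60.7% in 3D, and Ehhadh is too small to be seen.

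The genes whose pattern over the 4 samples lay nearest to that of Hadh, by Euclidean distance of centred log2(TPM + 1) among 7617 genes with a mean of at least 10 TPM, were Rmnd1, Rsrc2 and Ece1. Their distances were 0.021, 0.033 and 0.034. For Cpt1a the nearest were Ugcg, Sqstm1 and Drosha, at distances of 0.0057, 0.0071 and 0.0084. With 4 samples and many genes such closeness is a description only.

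Genes around the pathway were read from lists by function. Over all of these lists, 38 of 93 tested genes were called (15 higher and 23 lower in 3D), a share of 40.9% against 38.0% of all genes tested. Without 3D replicate 1 the count was 1 of 91, without 3D replicate 2 it was 10 of 93, and without 2D replicate 2 it was 21 of 93.

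Among the other carnitine shuttle genes, 1 of 8 tested was called (12.5%, against 38.0% of all genes tested). This was Cpt1b, the muscle-type CPT1 isoform, which rose from 2.01 and 2.17 TPM in 2D to 4.63 and 4.43 TPM in 3D (limma log2 fold change 0.81, adjusted p = 0.0061). The brain-type isoform Cpt1c had 8.55 and 8.93 TPM in 2D and 10.5 and 11.3 TPM in 3D, and its difference of 0.25 on the log2 scale missed the threshold (adjusted p = 0.0600). Slc25a20, the carnitine-acylcarnitine carrier that links CPT1 to CPT2, had 29.9 TPM in both 2D cultures and 27.3 and 24.5 TPM in 3D (limma log2 fold change -0.24, adjusted p = 0.0591, and -0.16 without 3D replicate 2). The groups did not overlap for any of these 3 genes, nor, after scaling, for 75.5% of all genes tested. How the quantification shared reads among the related CPT1 isoforms is not known.

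Of the 19 other genes of mitochondrial oxidation tested, 8 fell and 1 rose (47.4% called, against 38.0% of all genes tested). Their median log2 fold change was -0.23. Echs1, the short-chain enoyl-CoA hydratase, had 36.6 and 36.8 TPM in 2D and 23.7 and 25.4 TPM in 3D (limma log2 fold change -0.60, adjusted p = 0.0046). Hsd17b10, a mitochondrial dehydrogenase that overlaps HADH in substrates, fell by 0.38 on the log2 scale and Mcee, the methylmalonyl-CoA epimerase, by 0.36. Acadsb, the short and branched chain dehydrogenase, rose from 3.02 and 2.46 TPM to 6.21 and 6.06 TPM (limma log2 fold change 0.90, adjusted p = 0.0050).

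Of the 5 genes of the electron transfer flavoprotein group, which passes electrons from acyl-CoA dehydrogenases to the respiratory chain, 3 fell and 1 rose. The share called was 80%, against 38.0% of all genes tested. It was lower with any 1 culture left out, 2D or 3D, which leaves 1 culture in that group. Etfb, a subunit of the flavoprotein, had 56.1 and 57.9 TPM in 2D and 45.8 and 44.2 TPM in 3D (limma log2 fold change -0.38, adjusted p = 0.0116). Etfdh, its ubiquinone oxidoreductase, fell by 0.34 on the log2 scale and the methyltransferase gene Etfbkmt by 0.45. With 1 culture left out the log2 fold change ran from -0.42 to -0.25 for Etfdh and from -0.51 to -0.39 for Etfbkmt. Etfrf1, which encodes a regulator of the flavoprotein, had 48.3 and 46.0 TPM in 2D and 122 and 75.8 TPM in 3D. It rose by 0.97 on the log2 scale (adjusted p = 0.0214), and by 0.62 with 3D replicate 1 left out.

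In the peroxisomal list 2 of 13 tested genes rose and 2 fell (30.8% called, against 38.0% of all genes tested). Acox3, a peroxisomal acyl-CoA oxidase, had 5.44 and 4.96 TPM in 2D and 7.23 and 6.65 TPM in 3D and rose by 0.32 on the log2 scale (adjusted p = 0.0373). Hsd17b4, the other peroxisomal bifunctional enzyme, had 42.7 and 40.8 TPM in 2D and 34.4 and 35.7 TPM in 3D (limma log2 fold change -0.29, adjusted p = 0.0141). Its level was far above that of Ehhadh in every culture. Scp2, a thiolase and sterol carrier, fell by 0.28 on the log2 scale.

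Fatty acid uptake, binding and activation genes moved both ways, with 2 of 15 tested higher and 4 lower, and a median log2 fold change of 0.018. The share called was 40%, near the 38.0% of all genes tested. Fabp3, a fatty acid binding protein, rose from 11.1 and 11.2 TPM to 29.8 and 29.0 TPM (limma log2 fold change 1.28, adjusted p = 0.0027). Acsl1, which activates long-chain fatty acids to acyl-CoA, rose by 0.40 on the log2 scale. Dbi, the acyl-CoA binding protein, had 313 and 316 TPM in 2D and 226 and 232 TPM in 3D (limma log2 fold change -0.50, adjusted p = 0.0051), and the transporter gene Slc27a4 fell by 0.31.

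**Figure D4:**
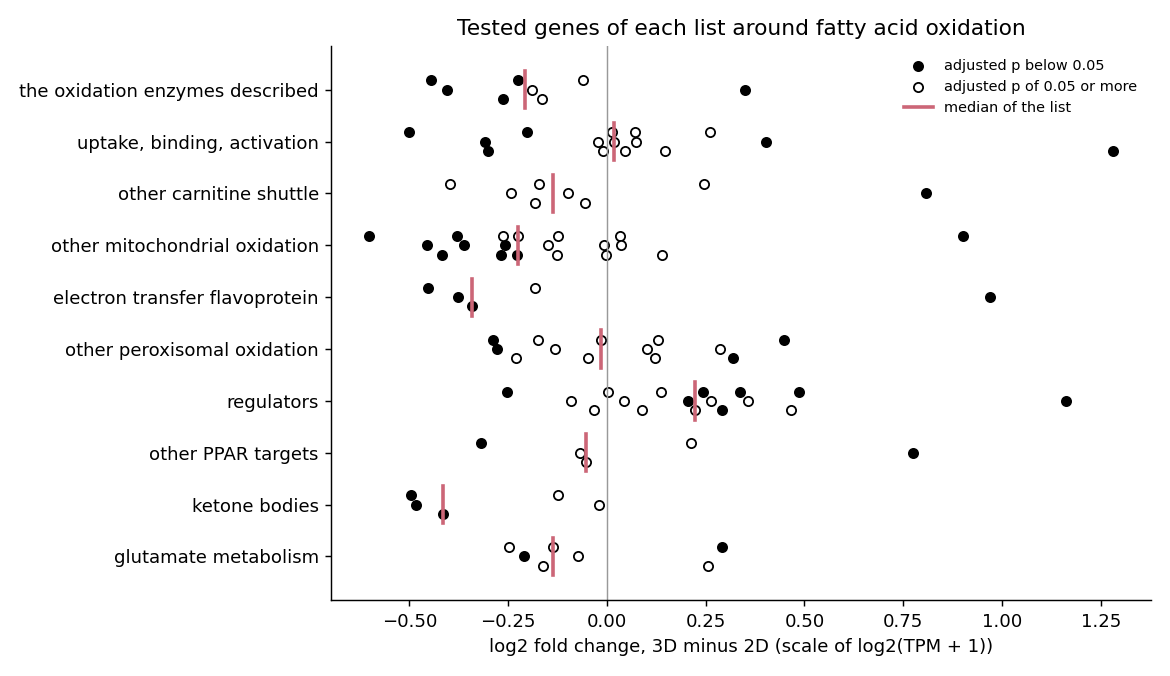
Log2 fold change (3D minus 2D) of each tested gene in the enzymes described and in 9 lists around them, with filled circles for an adjusted p below 0.05 and a red bar for the median of each list. The medians range from -0.41 for ketone body genes to 0.22 for regulators.

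Of 17 regulators tested, 6 rose and 1 fell, with a median log2 fold change of 0.22. The share called was 41.2%, near the 38.0% of all genes tested. Ppargc1a, the coactivator PGC-1 alpha, rose from 1.02 and 0.714 TPM in 2D to 3.54 and 2.94 TPM in 3D (limma log2 fold change 1.16 with a standard error of 0.14, adjusted p = 0.0057). With a 2D mean of 0.866 TPM, below the filter of 1, Ppargc1a was tested only because of its 3D level. Its relative Pprc1 rose by 0.34 on the log2 scale, and Esrra, a nuclear receptor that works with PGC-1 alpha, fell by 0.25. Acaca, the acetyl-CoA carboxylase that makes malonyl-CoA for lipid synthesis, had 19.6 and 15.5 TPM in 2D and 26.5 and 24.7 TPM in 3D (limma log2 fold change 0.49, adjusted p = 0.0186).

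Acacb, the mitochondrial carboxylase tied to CPT1 control, lay below the filter at 0.046 and 0.054 TPM in 2D and 0.341 and 0.273 TPM in 3D. Mlycd, which degrades malonyl-CoA, differed by 0.090 on the log2 scale (adjusted p = 0.441), by -0.0029 without 2D replicate 1 and by 0.18 without 2D replicate 2. Of the PPAR receptors, Ppard had 12.7 TPM in both 2D cultures and 17.2 and 14.7 TPM in 3D (limma log2 fold change 0.26, adjusted p = 0.0802), and the log2 fold change was 0.14 without 3D replicate 1. Ppara had 0.230 and 0.212 TPM in 2D and 0.114 and 0.125 TPM in 3D, and Pparg was at most 0.213 TPM in any culture, so neither was tested. Of 17 PPAR target genes outside the oxidation enzymes only 5 were tested, 1 of which rose and 1 fell. The share called was 40%, near the 38.0% of all genes tested. Fgf21, a secreted metabolic factor, had 0.662 and 0.542 TPM in 2D and 1.81 and 1.75 TPM in 3D (limma log2 fold change 0.78, adjusted p = 0.0103). Its 2D mean of 0.602 TPM lay below the filter of 1, so Fgf21 was tested only because of its 3D level. Ucp2, an inner membrane carrier abundant in beta cells, fell by 0.32 on the log2 scale (limma adjusted p = 0.0115).

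Ketone body genes, which use or make products of acetyl-CoA, had 3 of 5 tested genes lower and none higher, with a median log2 fold change of -0.41. The share called was 60%, against 38.0% of all genes tested. Aacs, the cytosolic acetoacetyl-CoA synthetase, had 65.8 and 64.1 TPM in 2D and 45.4 and 49.0 TPM in 3D (limma log2 fold change -0.50, adjusted p = 0.0054). Oxct1, which activates acetoacetate, fell by 0.48 on the log2 scale and the hydroxybutyrate dehydrogenase Bdh1 by 0.41.

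Glud1, the glutamate dehydrogenase that HADH binds, had 100.1 and 98.3 TPM in 2D and 93.4 and 92.4 TPM in 3D. The groups did not overlap, but the log2 fold change of -0.14 (95% interval -0.27 to -0.0026) had an adjusted p of 0.0940 in limma. In the list of glutamate metabolism 1 of 7 genes tested rose and 1 fell (28.6% called, against 38.0% of all genes tested). Got2, the mitochondrial aspartate aminotransferase, fell by 0.21 on the log2 scale (adjusted p = 0.0431). Among the called genes named from these lists, Etfrf1, Acox3, Scp2 and Acaca lost the call without the expression filter. Scp2, Esrra and Got2 lost it without the intensity trend, and Got2 also without scaling or with a mean TPM of 5 as the minimum. All of these kept the same sign. Cpt1b, Acadsb, Etfbkmt, Ppargc1a and Fgf21 averaged below 5 TPM and were not tested at that minimum.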

How the data were processed

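Single-end mRNA reads of the 4 libraries were quantified per transcript by the authors with Salmon 1.2, after FastQC 0.11.8, and deposited as TPM. The methods name the reference as rn4 with human insulin added, and the build was not checked here. The numbers are written with decimal commas, so a check of units took them as another unit, and the limits of TPM were tested on the parsed values. The count model named in the methods needs counts and was not run.

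TPM were summed per symbol, genes with a mean of at least 1 kept, samples scaled by a trimmed mean of unweighted M values (30% and 5% trimmed, factors 0.960 to 1.02), and log2(TPM + 1) fitted with limma 3.58.1 (intensity trend, R 4.3.3). Log2 fold changes on this scale understate changes of low genes. In simulated data for 3D against 2D with 11878 genes, 71 were changed by 0.5 on the log2 scale, 78 by 1 and 50 by 2. Of these, 22.5%, 70.5% and 86.0% were called. In the real data 38.0% of genes were called. The adjusted p depends on how many genes change, so the simulated percentages are not the power in these data.

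Members and lists were chosen with earlier results of these data known. All 9 members are named, with up to 4 called genes of smallest p per list, 11 regulators and pathway genes listed by name and the 3 nearest patterns of Hadh and Cpt1a; the ratio of Hadh to Hadha and the markers are outside that rule. Some genes that meet it are not reported here. Promoter windows are from RefSeq (GRCr8), matched by symbol. Alternatives varied the scaling, filter, pseudocount, replicate block, trend, threshold, samples and, for ratios and shares, the principal transcript alone.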

Additional observations from a re-analysis of the deposited data

How the results depend on the processing

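Every log2 fold change of the 8 enzymes kept its sign in all 12 alternative fits. At an adjusted p below 0.01, 1 of the 8 enzymes and 1418 of all genes were called. With 1 culture left out at a time, the count of enzymes called ran from 0 to 5, that of all genes from 136 to 4515 and that of genes in the surrounding lists from 1 to 31. The low ends were fits without a 3D culture, and without a 2D culture 4 or 5 enzymes were called; the cause was not tested. Acadm, Acadl, Hadha and Hadh were called in all 8 alternatives with 4 samples and Cpt2 in 2 of them, while Acadvl and Hadhb were called only without the expression filter. Without scaling the median of all genes moved from -0.0031 to 0.036 and 4 enzymes were called. Same-numbered cultures did not deviate together (correlation -0.0060). With 2 cultures a group this cannot show whether they were grown as pairs, which the labels and methods do not state. With the replicate number as a block limma called 4 of the 8 enzymes and 4814 genes, Cpt2 being lost with an adjusted p of 0.0514. TPM keep no depth, so the precision of Ehhadh and other low genes cannot be stated.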
